A study of Mus with 15 samples.

Results

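The 7 genes of the cyclin-dependent kinase inhibitor family, Cdkn1a, Cdkn1b, Cdkn1c, Cdkn2a, Cdkn2b, Cdkn2c and Cdkn2d, were examined in ChIPmentation peak lists of the monoubiquitinated histone mark H2AK119ub1 (H2Aub) from mouse thalamus. They were taken as a named family, out of 21883 protein-coding genes placed on the mm10 assembly. In ChIPmentation, a transposase adds the sequencing adapters to chromatin held on the antibody beads. For each gene, the peaks touching the gene body or the 5 kb on either side (the window) were collected from the 11 H2Aub lists. These were 229 of the 278739 peaks in all lists, and no peak fell in the windows of 2 members. The thalami came from mice aged 2 to 4 months on a C57Bl6J background. All mice carried loxP sites in Maged1. WT mice had no Cre and served as controls, and cKO mice lacked Maged1 in cells expressing Cre from the Vglut2 promoter, which is active in glutamatergic neurons, so that other thalamic cells of cKO mice retained the gene. Mice of every group received saline injections for 3 days, followed by 5 days of cocaine (20 mg/kg, intraperitoneal) or saline. WT mice gave 3 cocaine and 3 saline libraries and cKO mice 2 cocaine and 3 saline libraries, each from 3 to 4 pooled thalami per the labels. In such bulk chromatin, a mark on more cells and a stronger mark per cell cannot be told apart.

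H2Aub is placed by the Polycomb complex PRC1 and is linked to gene repression. The Cdkn genes encode inhibitors of the kinases that drive the cell cycle. The Cip/Kip members, p21 (Cdkn1a), p27 (Cdkn1b) and p57 (Cdkn1c), bind a broad range of cyclin-kinase complexes, while the INK4 members, p16 (Cdkn2a), p15 (Cdkn2b), p18 (Cdkn2c) and p19 (Cdkn2d), act on the cyclin D kinases Cdk4 and Cdk6. Cdkn2a also encodes ARF, which acts on the p53 pathway, and the Cdkn2a-Cdkn2b locus is a classical Polycomb target. Neurons have left the cell cycle for good, and in the brain these genes are best known for cell cycle exit and senescence.

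The lists held 7271 to 80713 peaks and covered 4.24 to 27.6 Mb. No read counts were given, so the depth of each library is unknown. The study states only a lower bound of reads per sample. The replicates numbered 1 of cKO cocaine and cKO saline stood apart. They held 54653 and 80713 peaks with highest fold enrichments of 31.2 and 52.6, against 5.98 to 12.2 in the other 9 lists. The mark measures neither expression nor cell types. Of 20 marker genes of thalamic neurons and other brain cells, 14 had a peak in at least 6 libraries, which does not check the tissue, and the deleted gene, Maged1, had no peak in any library, so the deletion could not be checked either. The study calls its replicates biological and independent and mentions more than 1 batch, but the labels tie no library to a batch, so values within batches could not be given. P-values measure the spread between these libraries.

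With all listed peaks used, Cdkn2a, Cdkn2b, Cdkn2c and Cdkn1c carried H2Aub peaks in all 11 libraries. For Cdkn1c in cKO saline replicate 2 this rested on a single weak peak (−log10 q of 1.09), which a limit of q at most 0.05 removes. Cdkn1a had a peak in 5 libraries, Cdkn1b in 3 and Cdkn2d in none. Of all coding genes, 6.76% had a peak in every library and 33.9% in none. By the mean percent of the window covered, Cdkn2a stood at 52.3% ± 13.6 (SD, n = 11), Cdkn2b at 29.9% ± 14.0, Cdkn1c at 23.3% ± 11.5 and Cdkn2c at 20.4% ± 6.07. Cdkn1a was covered over 2.00% ± 2.93 of its window and Cdkn1b over 0.955% ± 2.09. The median coding gene was covered over 0.0898%. Among the 21883 coding genes, Cdkn2a ranked 137, Cdkn2b 239, Cdkn1c 304 and Cdkn2c 332, whereas Cdkn1a ranked 2481 and Cdkn1b 3971. Over the 9 libraries without both cKO replicates numbered 1, the means were 55.6% for Cdkn2a, 31.8% for Cdkn2b, 20.8% for Cdkn2c, 20.2% for Cdkn1c, 1.25% for Cdkn1a and 0.0940% for Cdkn1b, so Cdkn1c and Cdkn2c changed places. The ranks were then 133, 224, 322, 334, 2655 and 6725 in this order. Cdkn2a was covered more fully than Cdkn2b in 11 of 11 libraries. Cdkn2b exceeded Cdkn1c in 7 of 11 libraries and Cdkn1c exceeded Cdkn2c in 7 of 11, so the order of these 3 genes was not the same from library to library. Cdkn2c was above Cdkn1a in 11 of 11. Even Cdkn2a was below the 11 genes of the HoxA cluster, a developmental locus silenced by Polycomb, whose median cover was 81.3% (71.6 to 92.0%).

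**Figure D1:**
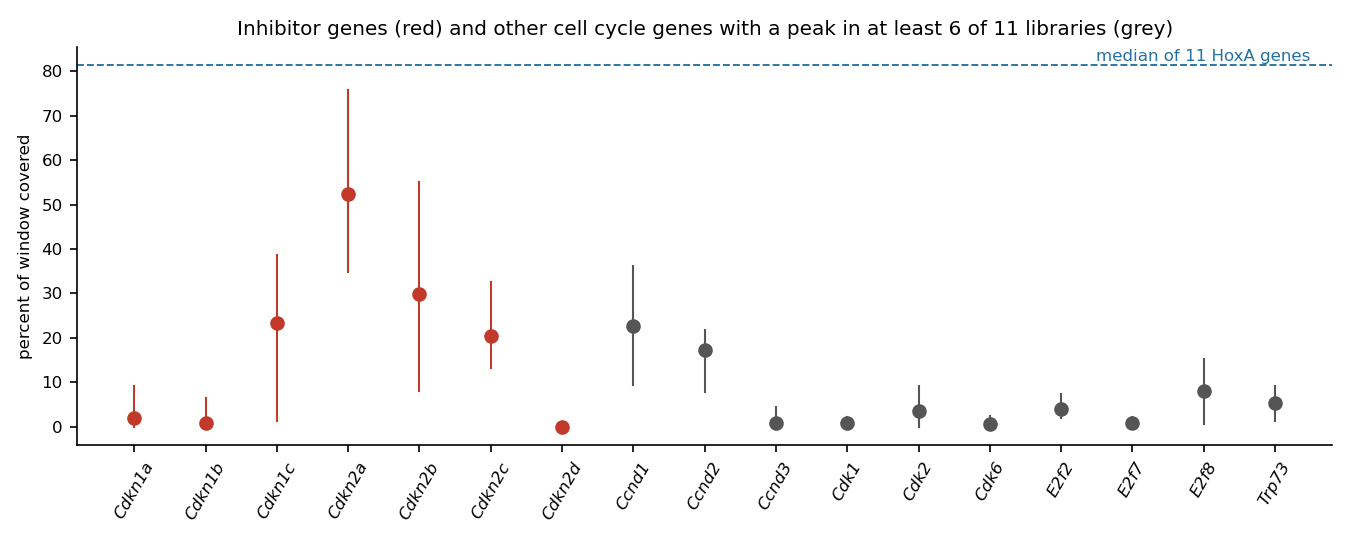
Percent of the window (gene body and 5 kb on either side) under H2Aub peaks, for the 7 inhibitor genes (red) and the other cell cycle genes with a peak in at least 6 of 11 libraries (grey). Points are means over 11 libraries and lines run from the lowest to the highest library. Cdkn2a has the highest mean, 52.3%, below the HoxA median of 81.3% (dashed).

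Cdkn2a, which encodes the inhibitor p16 and the p53 regulator ARF, lies at chr4:89274473-89294619. Its covered length was 22827, 16945 and 15695 bp in WT cocaine libraries 1, 2 and 3. It was 17482, 11387 and 16801 bp in the WT saline libraries. In cKO mice it was 10495 and 18392 bp with cocaine and 12247, 20465 and 10860 bp with saline. No library was below 10495 bp, and all groups overlapped. The cover came from 6 to 14 peaks per library, and the widest reached 12661 bp in cKO saline replicate 2 and 12626 bp in WT cocaine replicate 1. The strongest Cdkn2a peak had a fold enrichment over input of 4.48 to 6.63, and in 9 of the 11 lists it stood at the 97.4th percentile of all peaks or above. The exceptions were the cKO replicates numbered 1, in which it stood at the 82.4th and 84.2nd percentiles.

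The cover of Cdkn2a had a fixed core. All 11 libraries covered the same 4444 bp of the window, in 5 regions. The longest was chr4:89274512-89277036, which begins 0.039 kb inside the lower-coordinate end of the gene. A further core region, chr4:89273117-89273780, lay outside that end, and chr4:89281866-89282445 and chr4:89282968-89283637 lay 7.39 to 9.16 kb into the gene. In at least 9 libraries, 10989 bp were covered. Per length, the gene body was covered over 58.9% ± 16.7 (SD, n = 11), the lower flank over 49.8% ± 14.1 and the upper flank, towards Cdkn2b, over 28.6% ± 11.1. The gene table gives no strand, so ends are named by coordinate and the start sites of p16 and ARF could not be told apart.

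Cdkn2b, which encodes p15, lies above Cdkn2a on the same chromosome, at chr4:89306289-89311032. In WT mice it was covered over 8130, 6382 and 4292 bp with cocaine and over 4221, 1878 and 4538 bp with saline. In cKO mice these lengths were 3889 and 5836 bp with cocaine and 2428, 5688 and 1198 bp with saline. The highest value belonged to WT cocaine replicate 1 and the lowest to cKO saline replicate 3, and every group overlapped each of the others. The widest peak per library ran from 591 to 4839 bp. Cover was concentrated on the gene body, at 62.8% ± 25.8 (SD, n = 11), against 24.1% ± 18.6 in the flank towards Cdkn2a and 4.40% ± 5.33 in the flank away from it. The segment shared by all 11 libraries was 276 bp, chr4:89306961-89307236, within the body. A long non-coding RNA gene, Gm12610, spans all of Cdkn2b and reaches into the Cdkn2a window, so peaks there cannot be assigned to Cdkn2b alone.

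Cdkn2a and Cdkn2b were also viewed together as 1 stretch, without a rule for joining peaks into a domain. Inside the 2 windows, no region covered in at least 6 libraries lay between bases 89296807 and 89303035. From the lower end of Cdkn2a to the upper end of Cdkn2b (chr4:89274473-89311032), 48.5% ± 14.5 (SD, n = 11) of the sequence was under peaks. Between the genes the value was 24.7% (11.4 to 50.2%), with peaks in 11 of 11 libraries. The 10 kb below Cdkn2a were covered over 29.5% ± 11.8. Beyond those, the next 40 kb in 4 steps of 10 kb held no peak in any library. Above Cdkn2b, the first 10 kb were covered over 2.20% ± 2.66, in 6 libraries, and the 40 kb after that were free of peaks in all 11. In the map of the locus, the libraries differ in how much of the stretch from Cdkn2a to Cdkn2b is covered, from 29.5 to 76.6%, and in where the cover ends above Cdkn2b. In cKO saline replicate 3 the last peak ended inside Cdkn2b, at base 89307920.

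**Figure D2:**
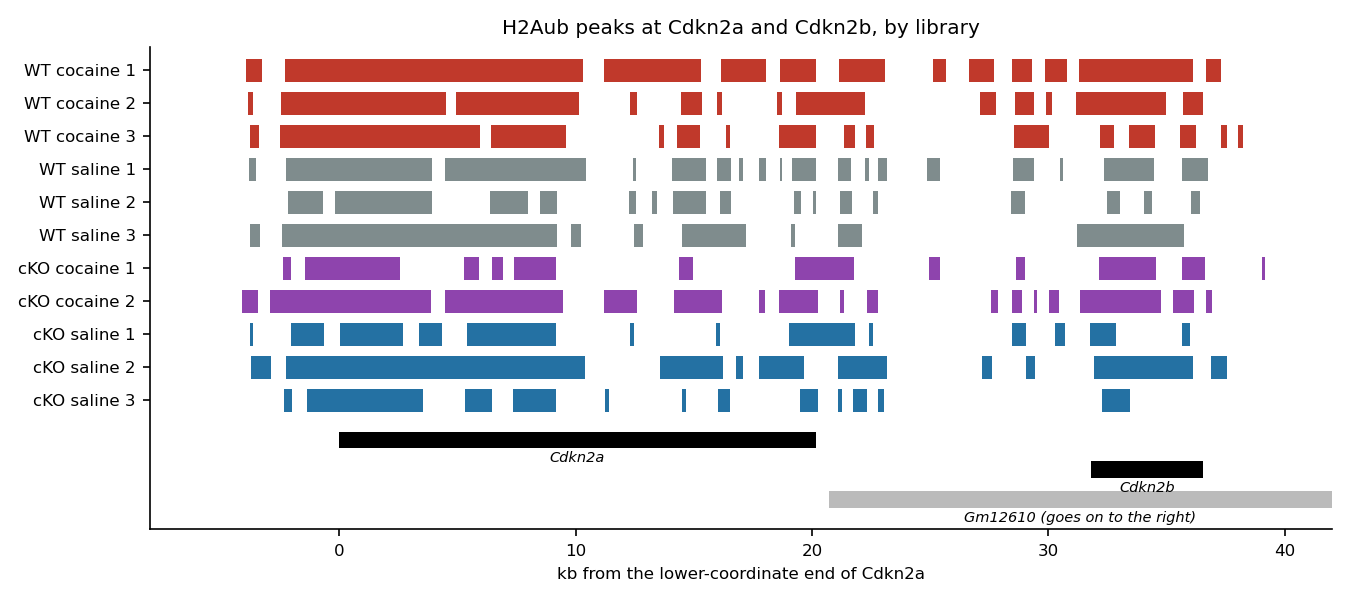
H2Aub peaks at Cdkn2a and Cdkn2b, 1 row per library, with distance in kb from the lower-coordinate end of Cdkn2a on the horizontal axis. Coloured bars are peaks, black bars gene bodies and the grey bar Gm12610. Every library has peaks over both genes and between them, and the regions covered in all 11 lie in the first 9.16 kb of Cdkn2a, just outside its lower end, and in Cdkn2b.

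Cdkn2c, which encodes the INK4 inhibitor p18, lies on the same chromosome at chr4:109660876-109666756. Peaks took up 5176, 3421 and 3746 bp of its window in WT mice given cocaine, against 3268, 2247 and 2628 bp in those given saline. The cKO values were 3611 and 4407 bp after cocaine and 2277, 2766 and 2119 bp after saline. Each cocaine library was above each saline library in both genotypes, as was so for 26.2% of the coding genes tested in WT and 9.58% in cKO. Per Mb covered by the list, the groups overlapped in both genotypes. The peaks did not lie on the gene evenly. The lower flank was covered over 41.2% ± 15.6 (SD, n = 11), the body over 20.1% ± 8.38, and the upper flank held no peak in any library. At least 9 libraries shared chr4:109657069-109657490 and chr4:109658493-109658807 in the lower flank and chr4:109665176-109665744 in the body. The first of these lies within 9630013D21Rik, a long non-coding RNA gene whose end reaches into the window.

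Cdkn2d, which encodes the INK4 protein p19, lies at chr9:21288459-21291421 and had no H2Aub peak in its body or flanks in any of the 11 libraries. Its window also holds parts of Kri1 and Ap1m2, so the absence covers the adjoining ends of those genes. The lists cannot show cover below the threshold of the peak caller.

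Cdkn1c, the imprinted Cip/Kip gene for p57, lies at chr7:143458339-143461059 and was the only Cip/Kip member with a peak in all libraries. The WT libraries had 4865, 3531 and 2301 bp under peaks with cocaine and 3364, 2531 and 1668 bp with saline. The cKO libraries had 4931 and 2455 bp with cocaine and 4537, 167 and 2246 bp with saline. The groups overlapped, and cKO saline replicate 2 was far below all others, with a single peak of 167 bp outside the gene. This peak had a −log10 q of 1.09 and a fold enrichment at the 1.34th percentile of its list. At q at most 0.05, the threshold the study states for peak calling, Cdkn1c had no peak in that library. The body was covered over 52.1% ± 24.7 (SD, n = 11) and the upper flank, which holds part of the long non-coding RNA gene Gm33663, over 28.3% ± 16.9. At least 9 libraries shared 587 bp, chr7:143458954-143459540, but no base was covered in all 11. The strongest Cdkn1c peak reached a fold enrichment of 7.95 in cKO cocaine replicate 1 and 11.5 in cKO saline replicate 1, against 3.10 to 4.14 in the other 9 lists. For Cdkn2a the same 2 lists gave 6.63 and 6.32, against 4.48 to 5.34, so Cdkn2a had the stronger peak in those 9 lists and Cdkn1c in these 2 only.

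Cdkn1a, the p53 target that encodes p21, lies at chr17:29090979-29100722. It had 892 and 685 bp under a peak in WT cocaine replicates 1 and 2 and none in replicate 3. WT saline replicate 1 had 640 bp, cKO cocaine replicate 1 had 320 bp and cKO saline replicate 1 had 1816 bp, and the other 5 libraries of these groups had none. The peaks of WT cocaine, chr17:29094052-29094943 and chr17:29094296-29094980, overlapped each other inside the gene, and had fold enrichments of 2.84 and 3.71, at the 13.5th and 74.1st percentiles of their lists. WT saline replicate 1 (chr17:29093984-29094481), cKO cocaine replicate 1 (chr17:29094710-29094869) and cKO saline replicate 1 (chr17:29093801-29095425) each had a peak that overlapped this stretch. Without the cKO replicates numbered 1, Cdkn1a had a peak in 3 of 9 libraries.

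Cdkn1b, which encodes p27, lies at chr6:134920401-134925525 and had a peak in WT saline replicate 3 (128 bp), cKO cocaine replicate 1 (460 bp) and cKO saline replicate 1 (1001 bp). Both cKO lists held a narrow peak just outside the lower end of the gene, chr6:134918861-134919049 with a fold enrichment of 11.8 and chr6:134918869-134919123 with 14.5. No other library had a peak there, and without these 2 lists Cdkn1b had a peak in 1 of 9. Of all coding genes, 18.3% had a peak in both cKO replicates numbered 1 and in at most 1 of the other 9 lists. The peak of WT saline replicate 3 lay within the long non-coding RNA gene Lockd.

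**Figure D3:**
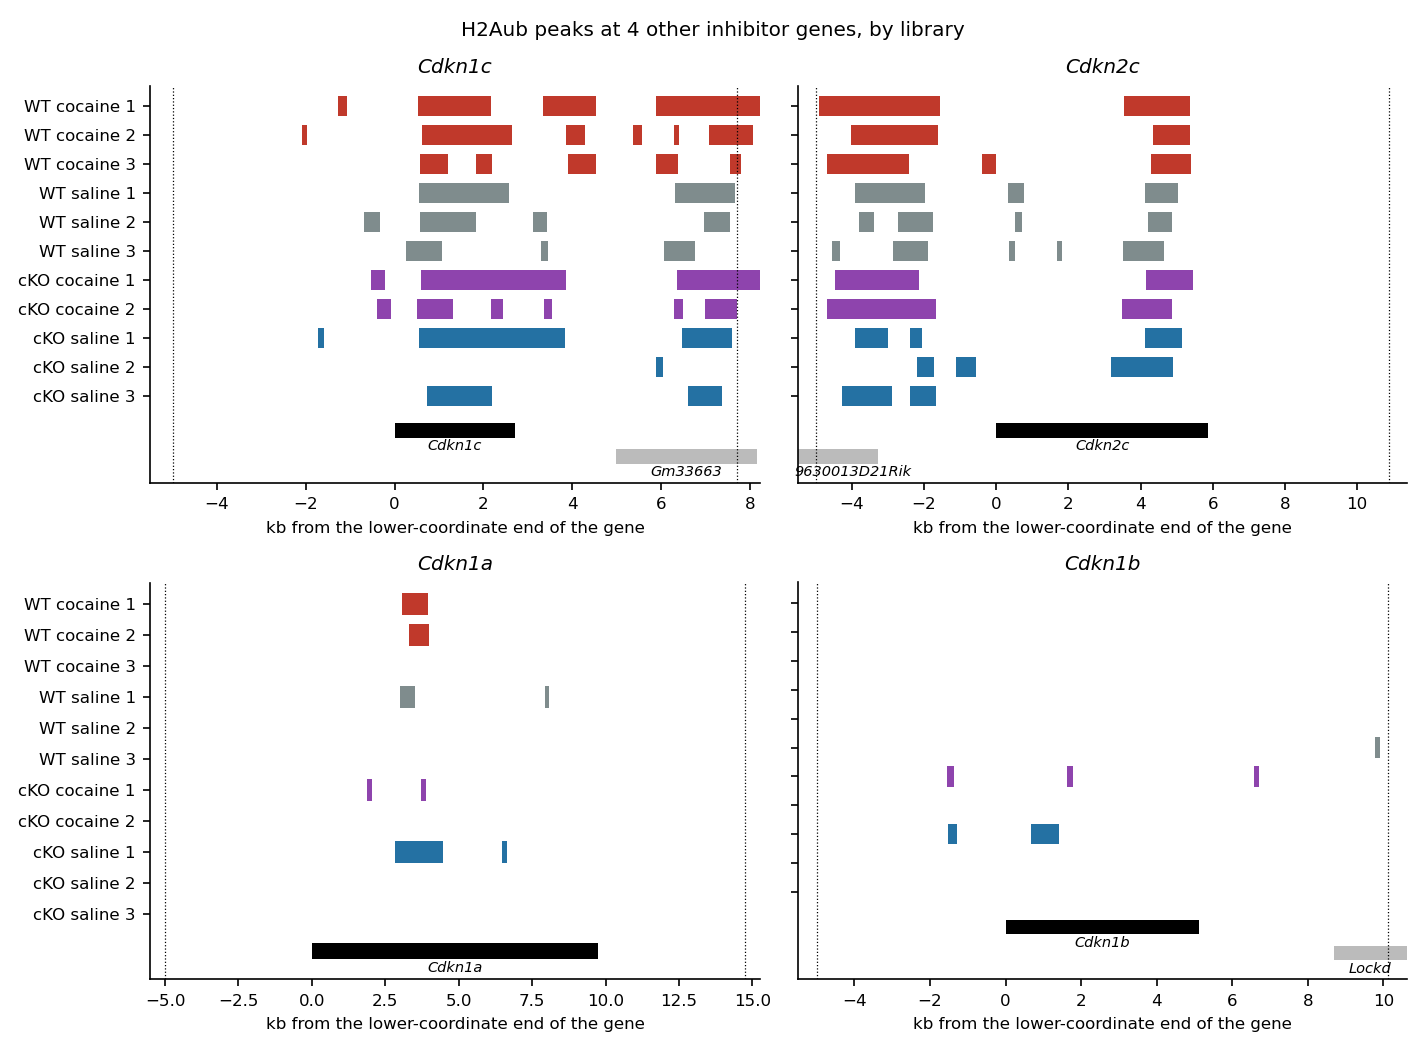
H2Aub peaks at Cdkn1c, Cdkn2c, Cdkn1a and Cdkn1b, 1 row per library in the same order in each panel, with distance in kb from the lower-coordinate end of each gene. Black bars are the genes, grey bars neighbouring non-coding genes and dotted lines the window. Cdkn2c peaks lie in the lower flank and the body, and the narrow Cdkn1b peak outside the lower end appears only in the cKO replicates numbered 1.

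A gene was called H2Aub+ in a group when at least 1 base of its window was covered in at least 2 libraries of the group, after the study's use of peaks common to at least 2 replicates. By this rule 5 of the 7 inhibitor genes were H2Aub+ in WT cocaine, where 17.9% of all coding genes were. In each of the other 3 groups 4 of the 7 were H2Aub+, against 12.8% of coding genes for WT saline, 12.9% for cKO cocaine and 11.3% for cKO saline. With 2 cKO cocaine libraries, each call in that group needs replicate 1, and none can be made without it. The same 4 genes, Cdkn1c, Cdkn2a, Cdkn2b and Cdkn2c, were H2Aub+ in all 4 groups, as were 7.77% of coding genes. For Cdkn1c in cKO saline this rested on replicates 1 and 3. The gene was no longer H2Aub+ there without replicate 1 or without replicate 3, nor with peaks of q above 0.01 removed, and 3 genes in place of 4 were left (against 5.76% of coding genes without replicate 1, 8.53% without replicate 3 and 4.24% with q at most 0.01). The fifth in WT cocaine was Cdkn1a, over 648 bp. H2Aub+ status in WT cocaine but not in WT saline was held by 6.46% of coding genes, against 1.43% for the reverse, and H2Aub+ status in WT cocaine alone of the 4 groups by 3.58%. The Cdkn1a call ended when WT cocaine replicate 1 or 2 was left out, when peaks with q above 0.01 were removed, or with equal numbers of peaks from each list. The share of coding genes H2Aub+ in WT cocaine was not computed at these settings, so a general loss of calls cannot be told from this one. In cKO mice no inhibitor gene was H2Aub+ with only 1 of the treatments, against 3.94% of coding genes with cocaine only and 2.32% with saline only. Under the settings in which Cdkn1c was not H2Aub+ in cKO saline, it was so with cocaine only. The share of coding genes H2Aub+ with cocaine only was not computed at those settings. With equal numbers of peaks, the strongest by −log10 q up to the length of the shortest list, Cdkn1c alone of the 7 was H2Aub+ in cKO cocaine, 1 gene in place of 4, while cKO saline kept all 4. The share of coding genes H2Aub+ was 0.827% in cKO cocaine and 5.79% in cKO saline at that setting, so it fell from the shares with all peaks as well.

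To ask whether cocaine changed the cover in control mice, the 4 members with a peak in at least 6 libraries were compared by exact permutation of libraries, with adjustment over the 4633 coding genes that passed the same filter. All 4 had a higher mean with cocaine, and none passed the test. Cdkn2c cover averaged 4114 ± 934 bp after cocaine and 2714 ± 516 bp after saline (SD, 3 libraries each), a difference of 1400 ± 616 bp (SE) and a ratio of 1.52 (exact permutation p = 0.10, the smallest that 3 against 3 libraries allow, adjusted p = 0.376). Cdkn2c was thus the 1 member of 4 whose WT groups did not overlap. Of the coding genes tested, 26.2% had WT cocaine higher without overlap and 0.453% had it lower, and the smallest adjusted p of any was 0.376. For Cdkn2b the means were 6268 ± 1922 and 3546 ± 1453 bp, a ratio of 1.77 (exact permutation p = 0.20, adjusted p = 0.462). For Cdkn1c they were 3566 ± 1282 and 2521 ± 848 bp, a ratio of 1.41 (exact permutation p = 0.40, adjusted p = 0.610). For Cdkn2a they were 18489 ± 3808 and 15223 ± 3340 bp, a ratio of 1.21 (exact permutation p = 0.50, adjusted p = 0.694). Most genes leaned the same way, with a higher mean in WT cocaine for 88.0% of the coding genes tested. The median coding gene had a ratio of 1.78 on values with 100 bp added, or 0.83 on the log2 scale, and the log2 ratios of the members were 0.28 for Cdkn2a, 0.48 for Cdkn1c, 0.58 for Cdkn2c and 0.80 for Cdkn2b, all below it. Without WT cocaine replicate 1 the difference was 869 bp for Cdkn2c, 1791 bp for Cdkn2b, 395 bp for Cdkn1c and 1097 bp for Cdkn2a. Without WT saline replicate 2 that of Cdkn2a was 1348 bp, and that of Cdkn1c was 618 bp without WT saline replicate 3 and 1677 bp without WT cocaine replicate 3. The separation of the Cdkn2c groups also depended on the window and on the peaks kept. Their difference was 380 bp with 2 kb flanks (exact permutation p = 0.40) and 100 bp on the gene body alone (exact permutation p = 0.80), and 1809 bp with q at most 0.01 (exact permutation p = 0.20), and the groups overlapped in each case.

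**Figure D4:**
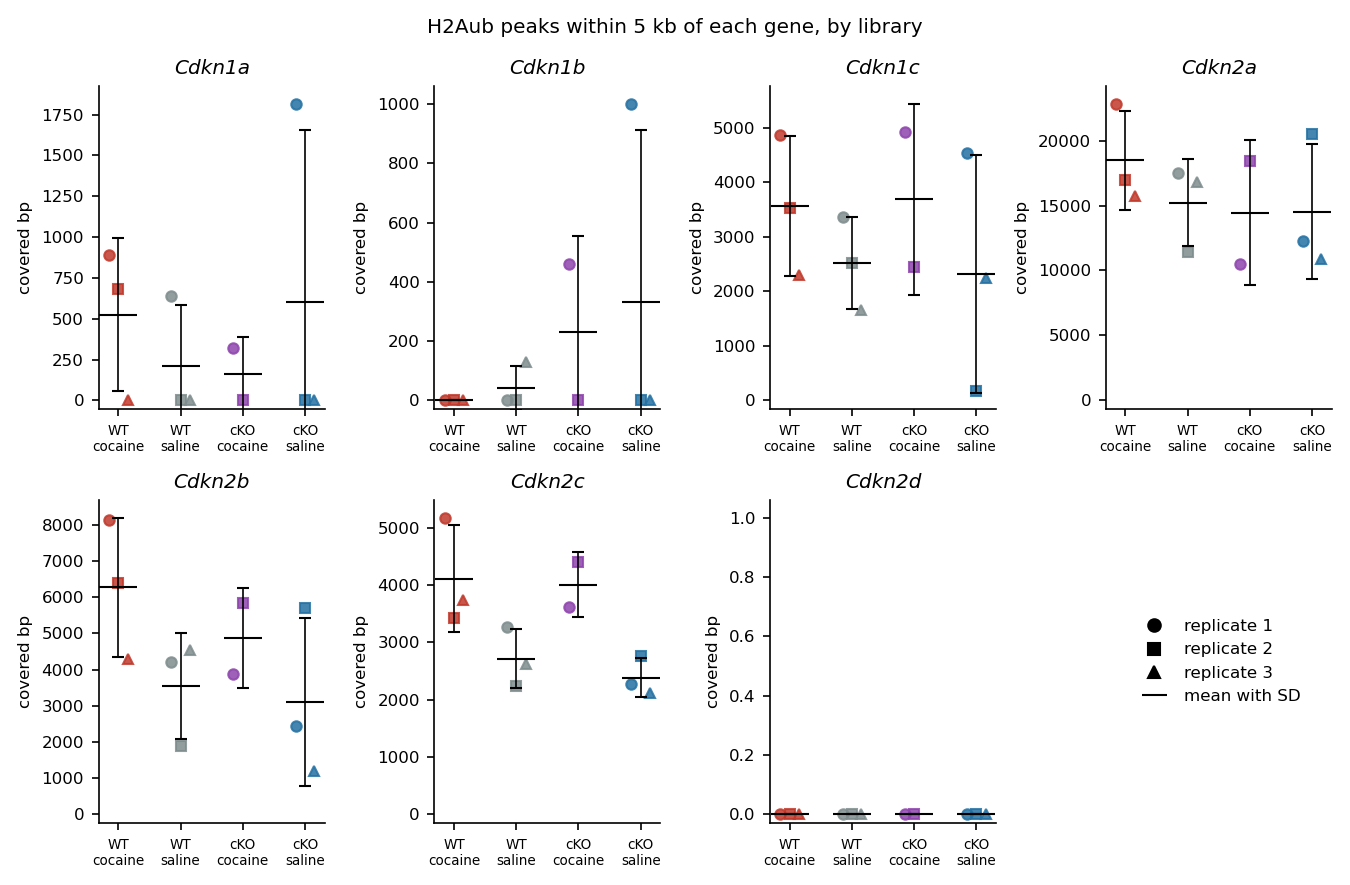
Covered length in bp within the window of each inhibitor gene, by library. Symbols mark the replicate number, horizontal lines the group mean and vertical bars the SD, cut at 0 (n = 3, and 2 for cKO cocaine). The Cdkn2c cocaine libraries all lie above the saline libraries of the same genotype, as in 26.2% (WT) and 9.58% (cKO) of the coding genes tested, and Cdkn2d is at 0 throughout.

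In cKO mice the same comparison was made with 2 cocaine libraries. Cdkn2c cover averaged 4009 ± 563 bp after cocaine (SD, n = 2) and 2387 ± 337 bp after saline (SD, n = 3), a difference of 1622 ± 443 bp (SE) and a ratio of 1.68 (exact permutation p = 0.10, the smallest possible, adjusted p = 1). These groups did not overlap either, as was so with cKO cocaine higher for 9.58% of the coding genes tested and with it lower for 0.173%. They overlapped with 2 kb flanks, where the difference was 203 bp (exact permutation p = 0.80), on the gene body alone, where it was 423 bp (exact permutation p = 0.70), and with equal numbers of peaks, where it was 575 bp (exact permutation p = 1). Cdkn2b differed by 1758 ± 1656 bp (exact permutation p = 0.40) and Cdkn1c by 1376 ± 1768 bp (exact permutation p = 0.40). With each library left out in turn these ran from 784 to 3050 bp for Cdkn2b and from 138 to 2614 bp for Cdkn1c, and with equal numbers of peaks the Cdkn2b difference was 2.33 bp. Cdkn2a was covered over 14444 ± 5584 and 14524 ± 5192 bp (exact permutation p = 1). Without both cKO replicates numbered 1, the Cdkn2c difference was 1965 bp, from 1 cocaine and 2 saline libraries, that of Cdkn2a became positive, at 2730 bp, and those of Cdkn2b and Cdkn1c were 2393 and 1249 bp.

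Because list length differed between libraries, the covered length was also divided by the Mb that each list covered. On this scale no member was higher with cocaine in both genotypes. In WT mice Cdkn2c had 296 ± 66.7 bp per Mb after cocaine and 337 ± 59.2 after saline (SD, exact permutation p = 0.50). In cKO mice it had 284 ± 162 after cocaine and 314 ± 213 after saline (exact permutation p = 0.90), so its direction turned in both genotypes and all groups overlapped. Without the cKO replicates numbered 1, the cocaine library stood at 399 and the saline libraries at 361 and 500.2 bp per Mb. Cdkn2a had 1324, 1129 and 1513 bp per Mb in WT cocaine and 1575, 2051 and 1997 in WT saline. These groups did not overlap, with cocaine lower (exact permutation p = 0.10, the smallest possible), as did those of 4.32% of the coding genes tested in this direction. No member had WT cocaine higher without overlap, against 12.1% of these genes. Cdkn2b, at 437 ± 30.5 after cocaine and 419 ± 106 after saline in WT mice, was the one with a higher mean. The part of sequencing depth in the length of the lists was not tested, as the lists give no reads.

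**Figure D5:**
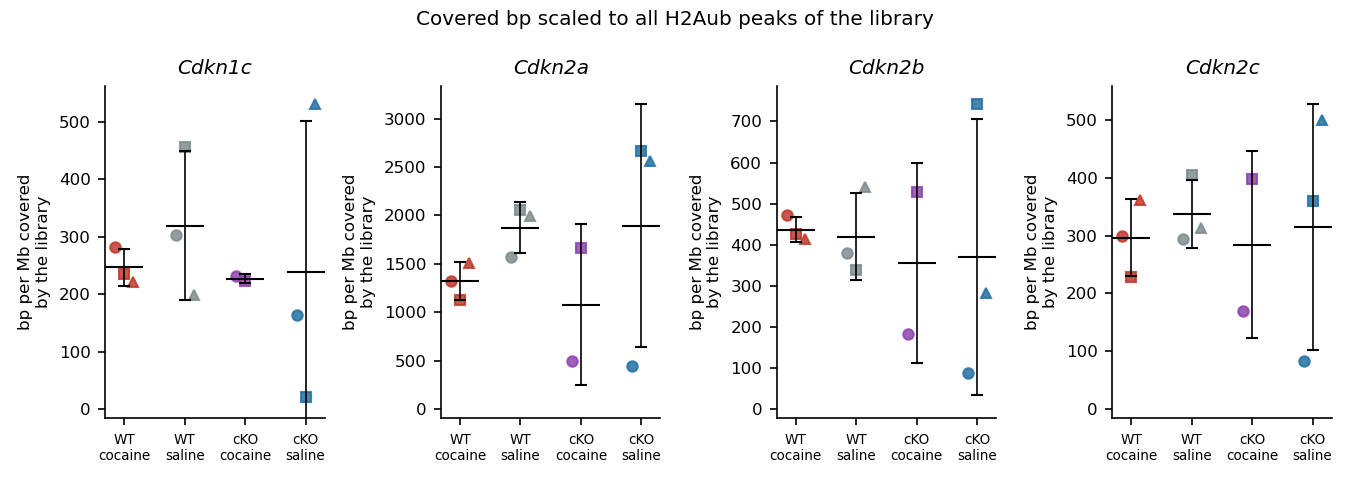
Covered bp per Mb under all peaks of the same list, for the 4 inhibitor genes with a peak in every library. Symbols, lines and bars are as in the plot of covered length. The Cdkn2c cocaine libraries no longer lie above the saline libraries, and the WT cocaine libraries of Cdkn2a lie below the WT saline libraries.

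To ask whether loss of Maged1 changed the cover, cKO and WT libraries of the same treatment were compared. With saline, all 4 genes had a lower mean in cKO, within the spread between libraries. Of the coding genes tested, 70.5% had a higher mean, a share that includes cKO saline replicate 1. That list covered 27.6 Mb, against 7.67 and 4.24 Mb for cKO saline replicates 2 and 3, and the share was not computed without it. Cdkn2a differed by −699 ± 3564 bp (SE, exact permutation p = 0.90), Cdkn2b by −441 ± 1581 bp (p = 0.90), Cdkn2c by −327 ± 356 bp (p = 0.60) and Cdkn1c by −204 ± 1354 bp (p = 0.90). With each library left out in turn the Cdkn2c difference ran from −561 bp, without WT saline replicate 2, to −50.2 bp, without WT saline replicate 1, and it was −516 and −193 bp without cKO saline replicates 2 and 3. Without cKO saline replicate 1 the differences were 439 bp for Cdkn2a, −103 bp for Cdkn2b, −272 bp for Cdkn2c and −1315 bp for Cdkn1c. With cocaine, Cdkn2a differed by −4046 ± 4519 bp (SE, exact permutation p = 0.50) and Cdkn2b by −1406 ± 1476 bp (exact permutation p = 0.40). Cdkn2c (−105 ± 670 bp) and Cdkn1c (127 ± 1442 bp) had exact permutation p = 0.90 and 0.70. Without cKO cocaine replicate 1 the differences were −97.0 bp for Cdkn2a, −432 bp for Cdkn2b, 293 bp for Cdkn2c and −1111 bp for Cdkn1c. Without cKO cocaine replicate 2 they were −7994, −2379, −503 and 1365 bp, in the same order of genes, and without WT cocaine replicate 1 they were −1877, −475, 426 and 777 bp. Without WT cocaine replicate 3 Cdkn2b differed by −2394 bp. No member had groups without overlap, against 1.36% (cKO saline higher) and 1.73% (lower) of the coding genes tested with saline, and 7.99% and 7.86% with cocaine.

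Whether the genotypes differed in their cocaine effect was tested with treatment labels exchanged inside each genotype, in 200 arrangements, so that the smallest p was 0.005. The cKO effect minus the WT effect was −3346 bp for Cdkn2a (exact permutation p = 0.545), −965 bp for Cdkn2b (p = 0.68), 332 bp for Cdkn1c (p = 0.87) and 222 bp for Cdkn2c (p = 0.88). No member passed 0.05, as did 0.604% of the coding genes tested before adjustment. The Cdkn2a value became positive, 602 bp, without cKO cocaine replicate 1. Without both cKO replicates numbered 1 the values were −536 bp for Cdkn2a, −329 bp for Cdkn2b, 204 bp for Cdkn1c and 565 bp for Cdkn2c.

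Most other genes of the cell cycle lacked a steady peak. Of 31 cyclins, cyclin-dependent kinases, pocket proteins, E2F factors and p53 family genes, 5 had a peak in all 11 libraries (6.76% of coding genes), 10 in at least 6 (21.2%) and 3 in none. The 5 were Ccnd1 and Ccnd2, the D cyclins that partner the kinases held by INK4 proteins, E2f2 and E2f8 of the E2F family, and Trp73, a p53 relative. Ccnd1 was covered over 22.6% of its window and Ccnd2 over 17.4%, close to Cdkn1c and Cdkn2c, while E2f8 was covered over 8.06%, Trp73 over 5.36% and E2f2 over 4.12%. Cdk2 was covered over 3.49% of its window on average, and Ccnd3, Cdk1, Cdk6 and E2f7 over 0.570 to 0.937%. Those with a peak in fewer libraries included Cdk4, the pocket protein genes Rb1 and Rbl2, and Trp53, and the 3 with none were Ccna2, Rbl1 and E2f5. H2Aub+ were 10 of the 31 in WT mice after cocaine and 5 after saline, and 8 in both cKO groups, against 17.9 and 12.8% of coding genes in the WT groups and 12.9 (cocaine) and 11.3% (saline) in the cKO groups. Without cKO saline replicate 1 it was 4 of the 31 in cKO saline, against 5.76% of coding genes. Of 97 genes named Rpl or Rps with a number, which include ribosomal S6 kinases, none had a peak in all libraries and 53 had none at all (52 of 87 without the kinases, a split made after seeing the data). In this list Rps6ka2 had the most covered bp.

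The genes whose cover varied most like that of each member were sought by Pearson's r over the 11 libraries, on percent of window divided by percent of genome under peaks, among the 4632 other coding genes with a peak in at least 6 libraries. Cdkn2a was most like Cir1 (r = 0.985), Sp8 (r = 0.985) and Hoxa4 (r = 0.984). Cdkn2c was most like Comp (r = 0.974) and Mthfsd (r = 0.950), Cdkn1c most like Ephb4 (r = 0.954), Megf6 and Myo15b, and Cdkn2b most like Chrna5 (r = 0.916), Pmaip1 and Prdm1. Among members, r was 0.872 for Cdkn2a and Cdkn2c, 0.656 for Cdkn2a and its neighbour Cdkn2b, and −0.421 for Cdkn1c and Cdkn2b. Over the 9 libraries without both cKO replicates numbered 1, an alternative added after seeing the data, these were 0.709, 0.234 and −0.914. The points share their library, and both cKO replicates numbered 1 have low values for Cdkn2a, Cdkn2b and Cdkn2c on this scale, so these values describe the lists used.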

How the data were processed

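The authors trimmed adapters with Cutadapt, mapped reads to mm10 with Bowtie2 (2.3.4.1) and called broad peaks against total input with MACS2 (2.1.1.20160309.3), 1 list per library. Input libraries (4) were not analysed here. Each deposited list gives a peak's position, a whole-number score (10 times −log10 q, not used), the fold enrichment as a linear ratio, and −log10 p and −log10 q as the caller gave them. All peaks were used, with q up to 0.0997. No read counts were given beyond the study's lower bound per sample, so the depth of each library is unknown. No interval for counting error could be given.

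Genes came from a table of GRCm38.p6, which has mm10 coordinates and no strand, and were matched by symbol (7 of 7). The covered bp of each window (5 kb flanks, overlap of at least 1 bp) were computed with Python 3.11.15. Group means over libraries were tested by exact permutation (two-sided) for genes with a peak in at least 6 of 11 libraries, with Benjamini-Hochberg adjustment over 4633 genes. limma 3.58.1 (R 4.3.3) on log2 of covered bp plus 100 was an alternative. Code was tested on simulated data. All 7 members were named, with neighbours in their windows, cell cycle genes with a peak in at least 6 libraries, the 3 genes most like each tested member (for Cdkn2c, 1 of them is not reported here), and the top gene of contrast lists. Members and lists were chosen with earlier results of these data known. Alternatives were the window, the q limit, equal numbers of peaks, overlap of at least 50% of a peak, each library left out, scaling to the list, the log scale, limma and the replicate block.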

Additional observations from a re-analysis of the deposited data

How the results depend on the processing

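The depth of each library is unknown, so list length and chromatin cover cannot be told apart. The lists say nothing of cover below the caller's threshold. With 2 or 3 libraries per group, the smallest p of a comparison of 2 groups was 0.10. The lowest p of a member under any alternative was 0.10 too, so changes of direction below are among differences that did not pass the test. The cause of these changes was not tested. limma on log2 of covered bp plus 100 called 0 of 4633 genes in each comparison (409 at an unadjusted p under 0.05 for WT cocaine against WT saline, 97 for cKO). Where 1 cKO cocaine library was left, limma with a spread pooled over groups, which assumes that the lone library varies like the others, gave members a lowest adjusted p of 0.585. The H2Aub+ count of members in cKO cocaine fell from 4 to 1 with equal numbers of peaks, where the share of coding genes fell from 12.9 to 0.827%. The other counts of the 7 members stayed within 1.5 times under every alternative run, while that of the other cell cycle genes in cKO saline fell from 8 to 4 without replicate 1. The differences that changed sign, in bp, were these. For the difference of cocaine effects (cKO minus WT), Cdkn2c gave −177 with 2 kb flanks and −1074 with equal numbers of peaks, Cdkn1c −569 with 10 kb flanks and −287 with equal numbers of peaks, and Cdkn2b 512 on the gene body alone and 0.013 on the log2 scale, by limma too. For cKO against WT with cocaine, Cdkn2b gave 14.5 and Cdkn2c 27.0 on the body alone, and Cdkn1c −338 with 10 kb flanks and −182 with equal numbers of peaks. Without both cKO replicates numbered 1 it was −1111 for Cdkn1c and 293 for Cdkn2c. For cKO against WT with saline, Cdkn1c gave 231 with 10 kb flanks, 175 with q at most 0.01 and 105 with equal numbers of peaks, and Cdkn2a 439 without both cKO replicates numbered 1. For cocaine in cKO, Cdkn2a gave 151 with q at most 0.05 and 2730 without both.

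Per Mb covered by the list, cocaine minus saline in WT was −72.7 for Cdkn1c, −552 for Cdkn2a and −40.8 for Cdkn2c. In cKO it was −11.7 for Cdkn1c, −15.3 for Cdkn2b and −30.1 for Cdkn2c. On this scale cKO minus WT was −19.3 for Cdkn1c with cocaine and 17.5 for Cdkn2a with saline.

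With each library left out in turn, differences that changed sign ran as follows. The difference of cocaine effects ran from −906 to 1570 for Cdkn1c, −7295 to 602 for Cdkn2a, −1953 to 327 for Cdkn2b and −176 to 753 for Cdkn2c. For cKO minus WT with cocaine it was −1111 to 1365 for Cdkn1c and −503 to 426 for Cdkn2c. With saline it was −1315 to 871 for Cdkn1c, −3670 to 1133 for Cdkn2a and −1733 to 512 for Cdkn2b. For cocaine in cKO, Cdkn2a ran from −4029 to 3868.

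Same-numbered WT libraries did not deviate together over the genes tested (r = −0.0084, 0.065 and −0.0018). The cKO groups share 2 numbers only, with r = 0.478 and 0.370 for the same numbers and −0.478 and −0.370 for crossed ones. Deviations of 2 cocaine libraries from their mean mirror each other, so the crossed values repeat the others with the sign turned. These values cannot decide on pairing, and the main tests took no pairs. With the replicate block, Cdkn2c in WT differed by 1400 bp (exact sign-flip permutation p = 0.25, the smallest 3 pairs allow), the cKO minus WT difference with cocaine changed sign for Cdkn1c (−505), and no call changed.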
